A study of Mus musculus with 1 sample.

Results

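Cytochrome c oxidase, or complex IV, carries a subset of its nuclear subunits as pairs of isoforms, and 8 such genes of the 32285 in the deposited matrix are described here. They form 4 pairs, with the isoform found in most tissues named first: *Cox8a* and *Cox8b*, *Cox4i1* and *Cox4i2*, *Cox6a1* and *Cox6a2*, and *Cox7a2* and *Cox7a1*. The genes were taken by symbol, and all 8 were found. The set was chosen by measured values, namely *Cox8b* levels that differed between chromaffin cell classes in these same cells, so the levels below are a description and carry no test.

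The study examined the postnatal adrenal medulla of the mouse by droplet single-cell RNA sequencing of 3′ ends. Its 1 wild-type library pooled 10 adrenals from 5 mice of both sexes at postnatal day 15, and the animals cannot be told apart within it. Excess cortex had been trimmed away by hand, the remaining tissue was dissociated with enzymes and no treatment or sort was applied before 10000 viable cells were loaded. With 1 library there are no replicates, so every interval below is a 95% interval for counting error in these cells, and no difference between classes has a replicate check. The intervals take UMIs as independent of each other, so they are too narrow where a few cells hold many of the UMIs.

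The matrix held 11214 barcodes, and 10139 cells passed the limits of 500 to 5000 genes and at most 20% mitochondrial UMIs (unique molecular identifiers, 1 per captured molecule), with a median of 3567 UMIs. Clusters were named from marker genes, and each name carries "-like" because it rests on those markers only. The 5 medullary classes held 1669 adrenaline chromaffin-like cells, 390 noradrenaline chromaffin-like cells, 134 cycling chromaffin-like cells, 414 transitioning-like cells with both chromaffin and sustentacular markers, and 179 sustentacular-like cells. Although the tissue is labelled medulla, the cells outside it comprised 3715 cortex-like, 2150 endothelial-like, 669 immune-like and 89 fibroblast-like cells. A further 730 cells fell in clusters that met the markers of more than 1 class, and 68.5% of them were called doublets. These 730 cells enter no comparison between the named classes. They do count in values over all cells and where chromaffin cells are named one by one. Median depth ran from 1149 UMIs in sustentacular-like to 5769.5 in cycling chromaffin-like cells, and 11.9% of the latter were called doublets.

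Complex IV is the last enzyme of the mitochondrial respiratory chain: it passes electrons from cytochrome c to oxygen and pumps protons across the inner membrane. Its catalytic core is encoded in mitochondrial DNA, and the small nuclear subunits around it adjust its activity and stability. Several of these come in a widely used form and a form restricted to certain tissues: *Cox6a2*, *Cox7a1* and *Cox8b* are known as the heart and skeletal muscle isoforms, *Cox7a1* and *Cox8b* also from brown fat, while *Cox4i2* is known from lung and from oxygen-sensing cells. Levels are given as UMIs per 1000000 UMIs of a class (CPM). Since each molecule gives 1 tag whatever its length, a level is not divided by transcript length, but the 2 genes of a pair may be captured with unequal efficiency, and a pair share therefore compares classes more safely than it compares the 2 isoforms.

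*Cox8b* (ENSMUSG00000025488) was the most divergent member. It contributed 59.6% (58.3 to 60.8) of the 5923 *Cox8* UMIs of noradrenaline chromaffin-like cells, 36.1% (35.0 to 37.1) in transitioning-like cells and 1.00% (0.851 to 1.17) of the 15580 in adrenaline chromaffin-like cells. *Cox8a* (ENSMUSG00000035885) made up nearly all of the pair in the cortex-like cells, where the *Cox8b* share was 0.187% (0.151 to 0.229). Subunit 8 is among the smallest of the enzyme.

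The *Cox8* genes lie on different chromosomes in mm10 (GRCm38), *Cox8a* at chr19:7215153-7217616 and *Cox8b* at chr7:140898945-140900446, both on the minus strand. No run of 50 bases in the last 500 bases of either gene's transcripts occurred in another gene. The 250 bases upstream of each start, taken from RefSeq on GRCm38.p6 and written 5′ to 3′ on the gene's strand, are shown because the pair differs there in its CG dinucleotides. The *Cox8b* region (chr7:140900447-140900696) holds 1, and 7.87% of the 32817 upstream regions hold fewer, while the *Cox8a* region (chr19:7217617-7217866) holds 11, against a median of 6. Neither holds a match on either strand to the 6 motifs searched, and no letters are therefore capitalised. These motifs, with the share of all regions that hold each, were the NRF1 motif, GCGCA and GCGC with 1 base between them (3.73%), CAAGGTCA for SF-1 and the oestrogen-related receptors (1.33%), TGACGTCA for CREB (1.55%), AGATAA for GATA factors (9.99%), the E-box CACGTG (6.02%) and the GC box GGGCGG (32.7%).
Cox8b: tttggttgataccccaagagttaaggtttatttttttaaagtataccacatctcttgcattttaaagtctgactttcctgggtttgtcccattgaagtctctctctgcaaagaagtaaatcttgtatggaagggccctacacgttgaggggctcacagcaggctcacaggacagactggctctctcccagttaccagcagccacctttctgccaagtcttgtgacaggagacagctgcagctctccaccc
Cox8a: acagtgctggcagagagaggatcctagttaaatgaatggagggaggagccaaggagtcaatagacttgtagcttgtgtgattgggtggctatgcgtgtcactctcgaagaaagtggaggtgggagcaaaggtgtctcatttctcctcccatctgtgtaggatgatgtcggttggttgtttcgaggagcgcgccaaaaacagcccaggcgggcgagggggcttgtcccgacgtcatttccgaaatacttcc

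In noradrenaline chromaffin-like cells *Cox8b* stood at 2678 CPM (2590.1 to 2768), from 3528 UMIs. In transitioning-like cells it was 1119 CPM (1078 to 1161), from 2836 UMIs. These intervals do not overlap, and the transitioning level was 0.418 times (0.398 to 0.439) the noradrenaline level. Cycling chromaffin-like cells at 252 CPM (221 to 287) and sustentacular-like cells at 173 CPM (124 to 236) came next, with overlapping intervals. In the cycling class 2 cells held 31.8% of the 239 *Cox8b* UMIs. Its share of the pair was 10.2% (8.97 to 11.4), but 7.53% without called doublets and 7.01% with 30 principal components. Fibroblast-like cells, with 7 UMIs, stood at 24.6 CPM (9.89 to 50.7), which also overlapped the 21.2 CPM (18.0 to 24.8) of adrenaline chromaffin-like cells. The lowest levels were 7.36 CPM in endothelial-like, 6.59 in immune-like and 3.70 in cortex-like cells, of which the endothelial and cortex intervals did not overlap (5.30 to 9.94 and 2.98 to 4.55). A single cell held 14 of the 42 endothelial UMIs, and a single cell 17 of the 91 cortex UMIs.

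**Figure D1:**
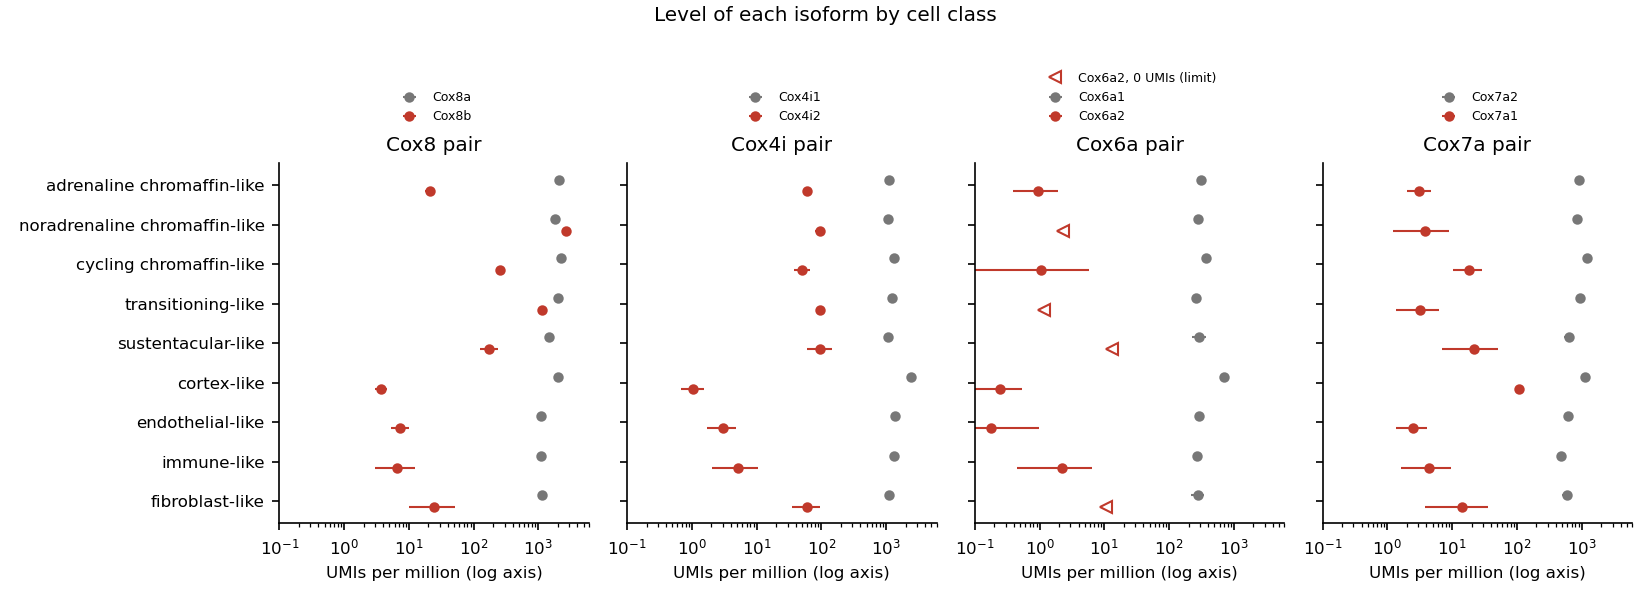
Level of the 8 isoform genes in 9 classes of cells, in UMIs per 1000000 UMIs (CPM) on a log axis, with 95% Poisson intervals cut at the axis edge; open triangles mark classes with 0 UMIs, placed at the limit that 3 counts set. *Cox8b* spans 3.70 CPM in cortex-like to 2678 CPM in noradrenaline chromaffin-like cells, while *Cox8a* spans 1105 to 2233 CPM.

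*Cox8a* varied far less, from 1105 CPM (1078 to 1133) in endothelial-like to 2233 CPM (2139 to 2331) in cycling chromaffin-like cells. Adrenaline chromaffin-like cells held 2097 CPM of it (2064 to 2130.0). The noradrenaline level of 1818 CPM (1746 to 1892) was 0.867 times as high (0.830 to 0.905). *Cox8b* was added to a *Cox8a* level that was only slightly lower: the pair summed to 4496 CPM in noradrenaline, 3103 in transitioning-like, 2118 in adrenaline chromaffin-like and 1982 CPM in cortex-like cells.

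The *Cox8b* level ratio of noradrenaline to adrenaline chromaffin-like cells was 126 (108 to 149), against 59.5 (44.1 to 82.1) for *Penk*, the enkephalin precursor, and 23.5 (19.5 to 28.5) for *Lix1*. Of the 9713 genes with at least 50 UMIs over both classes, 2.52% were at least 2-fold higher and 2.23% at least 2-fold lower in the noradrenaline cells on the scale of CPM + 10, and *Cox8b* had the largest ratio on that scale. This gene also led the noradrenaline cluster and took part in the clustering. The study had named *Cox8b*, *Penk* and *Lix1* together as noradrenaline markers from these same data. The set was chosen for the *Cox8b* difference, so neither these ratios nor the rank are a test. When all complex IV genes were left out of the variable features, the share was 59.8% and the ratio 121. When chromaffin cells were instead named one by one from their own *Pnmt* counts (*Pnmt* makes adrenaline from noradrenaline), with a threshold set after seeing the data, the noradrenaline share was 43.2% and the ratio 52.1. Of the 656 cells so named, 353 were in the noradrenaline clusters, with a share of 59.5%, and 250 came from the adrenaline clusters, with a share of 3.10%. A further 29 came from the mixed clusters, with a share of 33.9%.

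**Figure D2:**
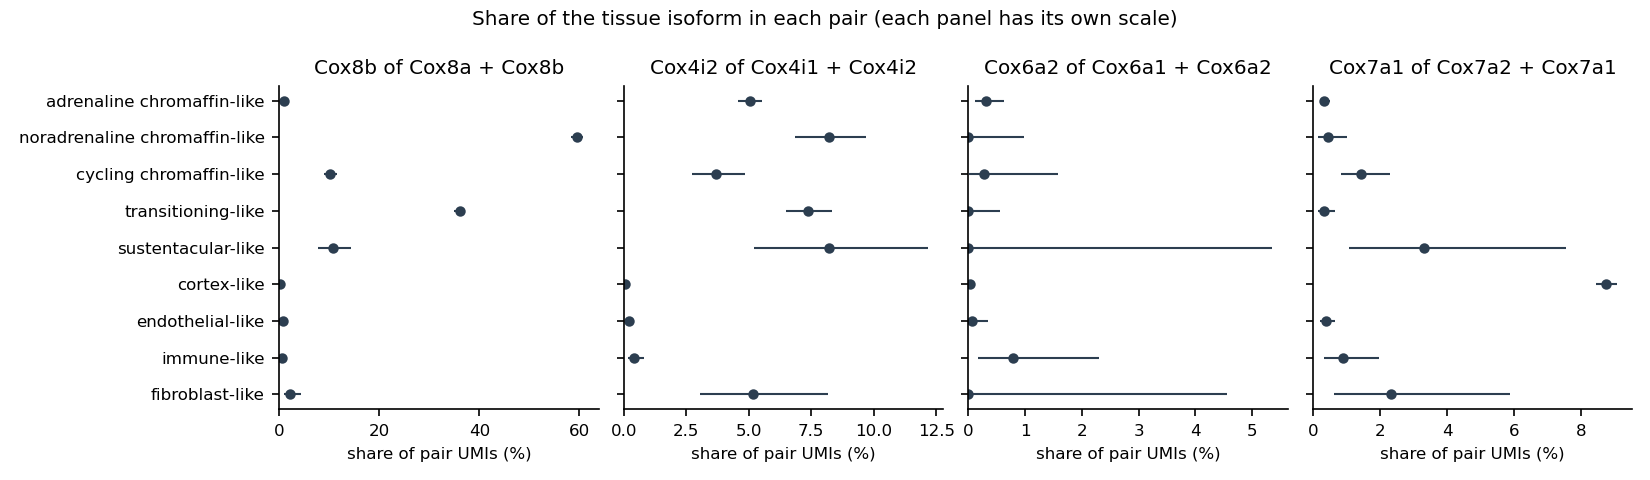
Share of each pair's UMIs that came from the tissue-restricted isoform, in percent, for 9 classes of cells with 95% Clopper-Pearson intervals. *Cox8b* takes 59.6% in noradrenaline chromaffin-like cells, *Cox4i2* at most 8.21% in sustentacular-like cells and *Cox7a1* 8.75% in cortex-like cells, with *Cox6a2* near 0.

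Cell by cell, 83.8% of noradrenaline and 62.3% of transitioning-like cells held a *Cox8b* UMI, against 3.83% of adrenaline chromaffin-like cells. Endothelial-like cells, taken as a class that should lack the gene, held one in 0.651% of cells at a median of 2005.5 UMIs, against medians of 2646.5 in noradrenaline and 3163 in adrenaline chromaffin-like cells. Thinned to 1000 UMIs a cell, the shares were 74.1% in noradrenaline, 43.2% in transitioning-like, 1.57% in adrenaline and 0.321% in endothelial-like cells. Of the 14 endothelial-like cells with the gene 10 held 1 UMI and 4 held 3 or more, up to 14, and the class's pair share went from 0.661% to 0.346% without called doublets; the source of these UMIs was not tested. This thinning left out the cells with fewer UMIs, 23 in the noradrenaline, 2 in the transitioning-like, 11 in the adrenaline, 282 in the endothelial-like and 3 in the cortex-like class. The adrenaline cells' *Cox8b* was concentrated: 1605 of the 1669 cells had none, and the 17 cells with the most held 65.4% of the class's UMIs. One noradrenaline cell held 101 *Cox8b* UMIs.

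Most noradrenaline cells with enough UMIs of the pair held both isoforms. Among its 230 cells with at least 10 *Cox8* UMIs, the *Cox8b* share had a median of 63.6%, a 10th percentile of 23.1% and a 90th of 85.7%. Only 7 of these cells had no *Cox8b* and 5 no *Cox8a*, so that 94.8% held both. The limit counts *Cox8b* UMIs too, so a high *Cox8b* count helps a cell to pass it. The pooled share was 63.6% in these 230 cells, against 59.6% in the whole class, where 63 of 390 cells had no *Cox8b* UMI. The standard deviation of the share, 24.1 percentage points, compares with 11.7 that counting alone gives at these depths, so these 230 cells varied in their mixture. Transitioning-like cells spread over the whole scale: of 272 cells 67 had no *Cox8b*, 32.0% were at 50% or above, the median was 32.9% and the highest 96.3%. Of 562 adrenaline cells 521 had no *Cox8b*, and the highest share was 43.5%.

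**Figure D3:**
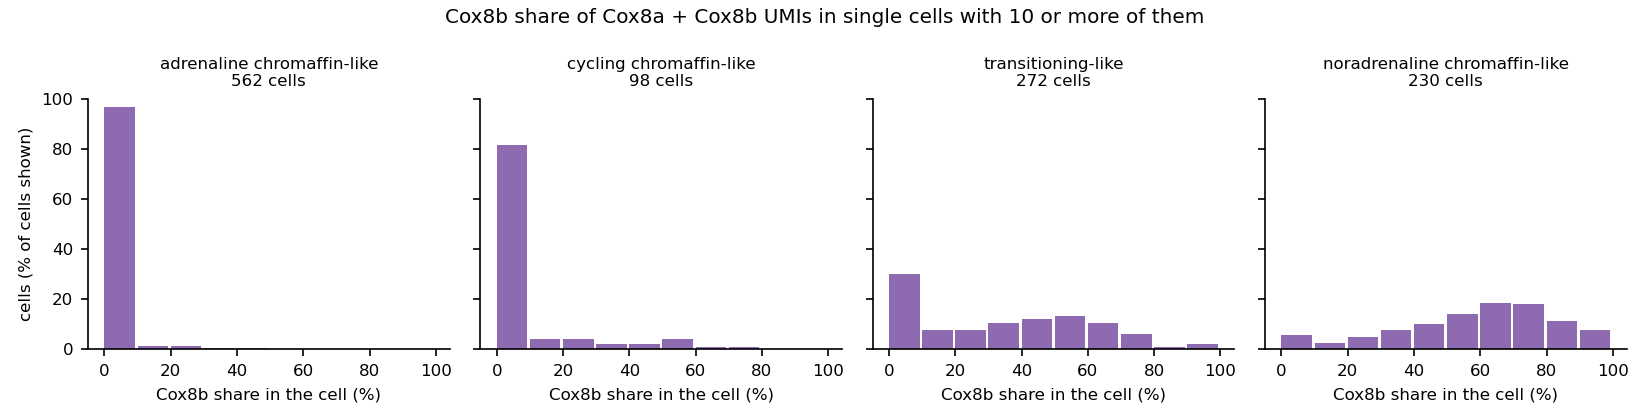
Distribution over cells of the *Cox8b* share of *Cox8* UMIs, in percent, for cells with at least 10 UMIs of the pair; bars give the percent of each class's cells, and the last bin includes 100%. The 230 noradrenaline cells centre on 63.6%, the 272 transitioning-like cells spread from 0 to 96.3% and 92.7% of the adrenaline cells sit at 0.

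The transitioning-like and cycling classes each held cells with and without *Pnmt*, and the *Cox8b* share differed with it. Transitioning-like cells without a *Pnmt* UMI (225 cells) had a share of 46.7% (45.2 to 48.1), and those with 30 or more (90 cells) 8.97% (7.63 to 10.4). In cycling chromaffin-like cells the share was 28.5% (24.3 to 32.9) in 19 cells without *Pnmt* and 1.21% (0.678 to 1.99) in 64 cells with 30 or more. Within the adrenaline class the 59 cells without a *Pnmt* UMI had 6.75% (4.53 to 9.60) and the 1065 cells with 30 or more 0.798% (0.647 to 0.974). Within the noradrenaline class there was no such order, with 60.0% (58.7 to 61.4) in 329 cells without *Pnmt* and 58.2% (51.2 to 65.0) in the 10 cells with 10 to 29 UMIs. *Pnmt* was used to name these classes, *Pnmt* and *Cox8b* both shaped the clusters, and the bins were set after seeing the data.

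**Figure D4:**
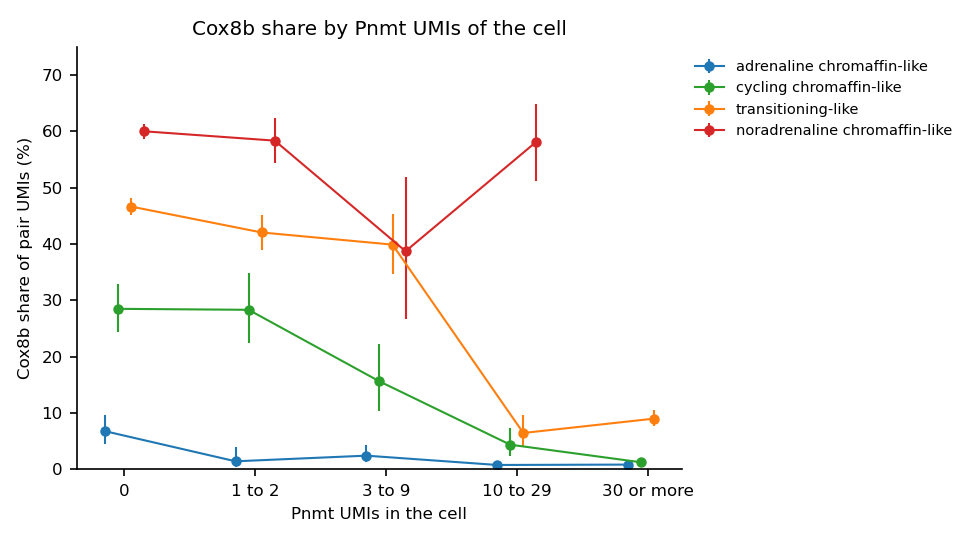
Share of *Cox8* UMIs from *Cox8b*, in percent, in cells binned by their *Pnmt* UMIs, for the noradrenaline, transitioning-like, cycling and adrenaline classes with 95% Clopper-Pearson intervals. The transitioning-like class goes from 46.7% at 0 *Pnmt* UMIs to 8.97% at 30 or more, and the noradrenaline class stays between 38.7% and 60.0%.

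*Cox8b* was detected more often in cells with *Penk* than in cells without it, but many cells held *Cox8b* alone. In the noradrenaline class 164 cells held both and 163 *Cox8b* only, and in the transitioning-like class 145 and 113. In adrenaline cells 27.6% of the 29 with *Penk* had *Cox8b*, against 3.41% of the 1640 others. In transitioning-like cells 87.9% of the 165 cells with *Penk* had *Cox8b*, against 45.4% of the 249 others; in the noradrenaline class the values were 90.6% of 181 and 78.0% of 209. The part of each cell's depth in these values was not tested. The 5 genes whose levels over the 9 classes were most like those of *Cox8b*, of 11244 compared, were *Aldh1a3*, a retinaldehyde dehydrogenase (Pearson's r 0.98), the Slit receptor *Robo2* (0.96), the prostaglandin receptor *Ptger3* (0.96), *Lix1* (0.95) and the neurofilament gene *Nefl* (0.95). These are 9 points from 1 library, dominated by the noradrenaline and transitioning-like levels. *Aldh1a3* stood at 244 CPM in noradrenaline, 138 in transitioning-like and 12.6 in adrenaline chromaffin-like cells.

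The sustentacular *Cox8b* came with chromaffin transcripts. The 16 sustentacular-like cells with a *Cox8b* UMI held a median of 8 chromaffin marker UMIs, and the 163 without it a median of 0, while sustentacular markers had a median of 9 in both. A single cell held 13 of the 40 *Cox8b* UMIs. The class share of 10.7% (7.75 to 14.3) became 18.5% when called doublets were left out and the cells were clustered again, which gave 192 cells in place of 179. The part of these transcripts in the value was not tested.

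Markers of the tissues known for *Cox8b* were looked for among the chromaffin cells. Of 6 brown fat genes, noradrenaline cells had *Cidea* at 75.9 CPM (transitioning-like cells 50.5, adrenaline cells 1.63) and 0 UMIs of *Ucp1*, *Adipoq*, *Elovl3*, *Plin1* and *Cidec*. Of 9 muscle genes, 3 were detected there and summed to 235 CPM, almost all of it *Myl1* at 228 CPM, while *Ckm*, *Actc1*, *Myh6* and *Mb* were at 0. In adrenaline cells *Myl1* stood at 5.44 CPM.

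*Cox4i2* (ENSMUSG00000009876, chr2:152754173-152765037, plus strand) was found in all 5 medullary classes. Subunit 4 is the largest nuclear subunit, and its second isoform is the one known from oxygen-sensing cells. *Cox4i2* gave 1046 UMIs in all and 5.81% of the pair in the medullary cells, against 0.0445% (0.0291 to 0.0652) in cortex-like cells. The share was 8.19% (6.86 to 9.68) in noradrenaline, 8.21% (5.22 to 12.2) in sustentacular-like, 7.37% (6.51 to 8.31) in transitioning-like, 5.03% (4.58 to 5.51) in adrenaline and 3.69% (2.73 to 4.87) in cycling chromaffin-like cells. Before thinning, only the noradrenaline and transitioning-like intervals lay wholly above that of the adrenaline class. Thinned to 1000 UMIs a cell, the shares were 7.19% (4.91 to 10.1) in noradrenaline and 8.03% (5.89 to 10.6) in transitioning-like cells. The adrenaline share was then 5.26% (4.32 to 6.34), and both intervals overlapped that range. These thinned shares rest on 30, 44 and 105 *Cox4i2* UMIs, so their intervals are wider. The sustentacular value rests on 22 UMIs in 20 cells, whose chromaffin markers summed to 8483 CPM, against 2465 CPM in the 159 cells without *Cox4i2*. Median chromaffin marker counts were 1 and 0 UMIs, and 55.0% against 42.1% of the cells held such a marker. The part of these markers in the value was not tested.

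By level, transitioning-like cells at 96.6 CPM (84.9 to 110), sustentacular-like cells at 95.2 (59.7 to 144) and noradrenaline cells at 94.9 (79.0 to 113) could not be separated. Fibroblast-like cells at 59.7 CPM (34.8 to 95.6), adrenaline cells at 59.3 (53.8 to 65.1) and cycling cells at 50.7 (37.4 to 67.2) followed, again with overlapping intervals. Immune-like cells at 5.12 CPM (2.06 to 10.6), endothelial-like cells at 2.98 (1.73 to 4.77) and cortex-like cells at 1.06 (0.691 to 1.55) were far lower, with no overlap with the classes above. The noradrenaline to adrenaline ratio was 1.60 (1.30 to 1.96). In the noradrenaline class 4 cells held 21.6% of the 125 *Cox4i2* UMIs, and in the adrenaline class 17 cells held 12.2% of the 436. The adrenaline class was itself uneven. Its cluster led by *Pnmt* and *Cfap61* (830 cells) stood at 81.9 CPM (69.9 to 95.4). Its cluster led by *Chga* and *Slc6a4* (715 cells) stood at 50.9 CPM (44.8 to 57.6). The *Cox4i2* shares of the pair were closer, at 6.20% (5.32 to 7.19) and 4.55% (4.01 to 5.13). Median depths of the 2 clusters were 2305 and 5691 UMIs, and the part of depth in these values was not tested.

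*Cox4i2* was sparse, with at most 8 UMIs in any noradrenaline cell and none in 1332 of the 1669 adrenaline cells. A UMI was found in 34.5% of transitioning-like, 20.2% of adrenaline and 17.7% of noradrenaline cells, against 0.791% of endothelial-like cells. At 1000 UMIs a cell the values were 9.71%, 6.15%, 7.08% and 0.375%. The order of adrenaline and noradrenaline cells was the other way round in this single random draw. The part of depth or of counting error in that was not tested. The widely used *Cox4i1* (ENSMUSG00000031818, chr8:120668222-120674207) was between 1063 and 1346 CPM in 8 classes and 2379 CPM (2359 to 2398) in cortex-like cells, 2.13 times the adrenaline level. Part of its exons, 154 of 1550 bases, overlaps *Emc8* on the opposite strand.

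Fibroblast-like cells were the non-medullary class with *Cox4i2*, at 5.18% (3.05 to 8.17) of the pair from 17 UMIs. Of the 14 cells with a UMI, 85.7% also held a pericyte or smooth muscle marker, and of the 75 without it 86.7%. Median counts of these markers were 6.5 and 3 UMIs, at median depths of 3486 and 1849 UMIs. Chromaffin markers summed to 6867 CPM in the cells with *Cox4i2*, against 2426 CPM in those without it. The median chromaffin marker count was 0 UMIs in both, and 42.9% against 37.3% of the cells held such a marker. The part of either kind of marker or of depth in the value was not tested. The 5 genes most like *Cox4i2* over the 9 classes were *Ncam1*, a neural cell adhesion molecule (r 0.98), *Arhgef25* (0.97), the long noncoding RNA *Ftx* (0.97), *Rbms3* (0.96) and *Tmod2* (0.96).

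*Cox7a1* (ENSMUSG00000074218, chr7:30184144-30186078, plus strand) was a cortical isoform in these cells, with 2654 of its 3057 UMIs in cortex-like cells. It took 8.75% (8.43 to 9.07) of the *Cox7a* pair there, against 0.338% (0.215 to 0.507) in adrenaline chromaffin-like cells. Its level was 108 CPM (104 to 112) in cortex-like cells, and the next classes were sustentacular-like cells at 21.6 CPM (5 UMIs) and cycling chromaffin-like cells at 18.0 CPM (17 UMIs). Fibroblast-like cells followed at 14.1 CPM (4 UMIs) and the other 5 classes lay between 2.45 and 4.39 CPM, where each interval overlapped that of its neighbours. The level ratio of cortex to adrenaline cells was 34.6 (23.0 to 54.6), among 12483 genes of which 10.7% were at least 2-fold higher and 11.6% at least 2-fold lower in cortex.

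The upstream regions of the *Cox7a* pair are shown because their CG counts differ in the same direction as those of the *Cox8* pair and because motif matches fall in both. The *Cox7a1* region (chr7:30183921-30184170, GRCm38.p6, plus strand, RefSeq start) holds 4 CG dinucleotides and 2 matches to the GATA motif, 1 on each strand, in capitals. The *Cox7a2* region (chr9:79759854-79760103, minus strand) holds 14 CG dinucleotides and 1 GC box, in capitals. Of all upstream regions 37.8% hold fewer CG dinucleotides than that of *Cox7a1* and 70.7% fewer than that of *Cox7a2*. The *Cox6a1* region, not shown, holds 26 CG dinucleotides and 4 motif matches. A match is a string of letters and no measure of binding.
Cox7a1: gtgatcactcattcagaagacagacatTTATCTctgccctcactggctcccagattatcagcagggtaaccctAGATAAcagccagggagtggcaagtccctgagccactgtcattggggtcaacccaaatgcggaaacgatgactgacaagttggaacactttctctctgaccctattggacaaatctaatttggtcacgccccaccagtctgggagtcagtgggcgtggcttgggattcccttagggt
Cox7a2: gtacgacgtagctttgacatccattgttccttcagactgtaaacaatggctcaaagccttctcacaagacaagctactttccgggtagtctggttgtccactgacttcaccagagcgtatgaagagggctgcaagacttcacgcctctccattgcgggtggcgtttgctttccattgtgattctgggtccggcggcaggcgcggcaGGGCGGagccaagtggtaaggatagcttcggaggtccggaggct

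The 4 cortex clusters did not share the isoform equally. The *Cox7a1* share was 12.1% (11.6 to 12.6) in the cluster led by *Pik3c2g*, *Apoc1* and *Akr1c18* (1693 cells), of which *Akr1c18* is a marker of the X-zone, the inner cortical layer of young mice. It was 7.02% (6.32 to 7.78) in cycling cortex cells led by *Pbk* and *Birc5* (360 cells) and 5.43% (4.89 to 6.02) in the cluster led by *Cyp11b1*, the last enzyme of corticosterone synthesis (907 cells). The lowest value was 3.61% (3.05 to 4.23), in the cluster led by *Ecrg4*, *Ly6d* and *Wnt4*, a gene of the outer cortex (755 cells). No pair of these intervals overlapped, and the corresponding levels were 174, 98.1, 60.0 and 30.1 CPM.

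Read by the cell's own *Akr1c18* instead of its cluster, the *Cox7a1* share was 4.40% in 1604 cells with under 100 CPM of *Akr1c18* and 10.5% (9.49 to 11.6) in 505 cells with 100 to under 1000 CPM. Above that it stayed between 10.5% and 11.5%, with 10.8% (10.0 to 11.6) in the 613 cells with 10000 CPM or more. These bins were chosen after the values were seen. Of 1104 cortex-like cells with at least 10 *Cox7a* UMIs, 64.7% held both isoforms, with a median *Cox7a1* share of 7.69% and a highest of 53.3%. In all, 39.8% of cortex-like cells held a *Cox7a1* UMI, against 0.651% of endothelial-like cells, and at 1000 UMIs a cell 10.4% against 0.535%.

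**Figure D5:**
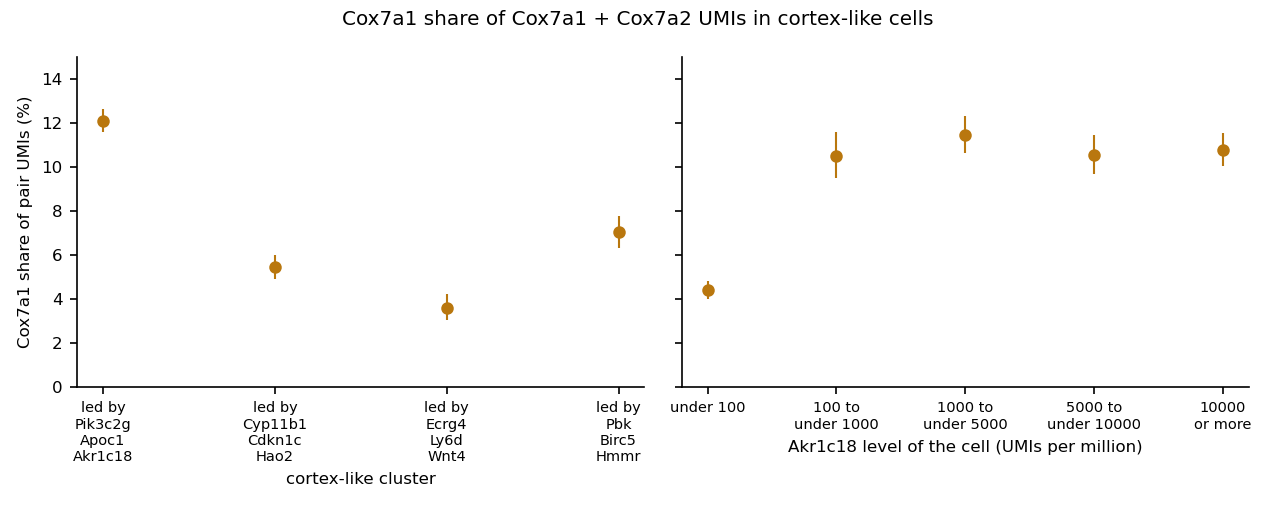
Share of *Cox7a* UMIs from *Cox7a1*, in percent with 95% Clopper-Pearson intervals, in the 4 cortex-like clusters named by their leading genes and in cortex-like cells binned by their *Akr1c18* level. The clusters run from 3.61% to 12.1%, and the bins from 4.40% below 100 CPM to between 10.5% and 11.5% above it.

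*Cox7a1* in cycling chromaffin-like cells rested on few cells with cortical transcripts. The 10 cells with a UMI held a median of 95 cortex marker UMIs and 14362 UMIs in all, against 1 and 5528.5 in the other 124. The class share of 1.45% was 0 when called doublets were left out, and also at a clustering resolution of 0.8, with 30 principal components or with stricter limits on cells. *Cox7a2* (ENSMUSG00000032330, chr9:79755361-79759878) ranged from 478 CPM in immune-like to 1220.2 CPM in cycling chromaffin-like cells. The genes most like *Cox7a1* over the classes were *Uhrf1bp1l*, *Hoxb9*, *Nr5a1*, the steroidogenic factor SF-1 that served as a cortex marker, and *Lypd6* (each r 0.98), with *Lypd3* (0.97).

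*Cox6a2* (ENSMUSG00000030785, chr7:128205435-128206387, minus strand), the other muscle isoform, was almost undetected. It had 19 UMIs in 10139 cells, or 0.0744% (0.0448 to 0.116) of the *Cox6a* pair, of which 7 were in adrenaline chromaffin-like and 6 in cortex-like cells. All 3 UMIs of the immune-like class came from 1 cell. Noradrenaline cells had 0 of 373 pair UMIs, which allows a share of up to 0.804%, and transitioning-like cells had 0, which allows up to 0.450%. Of its 680 exon bases 70 overlap *Itgad* on the opposite strand. *Cox6a1* (ENSMUSG00000041697, chr5:115345642-115348981) stood at 710 CPM (700.0 to 721) in cortex-like cells, 2.32 times the adrenaline level, and between 263 and 371 CPM in the other 8 classes. The *Cox8b* of the noradrenaline cells was not accompanied by the other isoforms known from muscle, since *Cox7a1* had 5 UMIs there, at 3.80 CPM.

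Among the members compared between noradrenaline and adrenaline chromaffin-like cells, 6 passed the minimum of 50 UMIs and only *Cox8b* was 2-fold apart. *Cox6a2* and *Cox7a1* had too few UMIs. Of all 9713 genes tested 2.52% were at least 2-fold higher and 2.23% lower. The median log2 ratio of the 6 members was -0.09, against -0.00039 over all genes tested. In cortex-like cells 3 of 7 members were at least 2-fold higher than in adrenaline cells (*Cox4i1*, *Cox6a1* and *Cox7a1*) and 2 lower (*Cox8b* and *Cox4i2*), with a median of 0.29 against 0.02. Of the 12483 genes tested there 10.7% were higher and 11.6% lower. In endothelial-like cells 0 of 6 members were higher and 1, *Cox4i2*, was lower, with a median of -0.72 against 0.04; of the 11280 genes tested 15.1% were higher and 14.0% lower. The 3 comparisons share the adrenaline cells.

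Most other genes of complex IV stood alike in the 2 chromaffin classes, as did most genes of any kind. Of all 9713 genes tested 2.52% were at least 2-fold higher and 2.23% lower in noradrenaline cells. Of the other nuclear subunits 6 of 9 were tested between the 2 chromaffin classes, and 0 were 2-fold higher or lower. The same held for the 3 mitochondrially encoded subunits, which summed to 35240 CPM in noradrenaline and 35610 CPM in adrenaline cells, and for 22 of the 25 assembly factors. The other 9 nuclear subunits summed to 4099 CPM (3990.0 to 4209) and 4507 CPM (4459 to 4556). With the 8 members included the order turned, at 10898 CPM against 9035 CPM. This turn rests on *Cox8b*, the gene for whose difference the set was chosen, at 2678 and 21.2 CPM of these sums.

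Among the genes listed as associated or replacing subunits 1 did differ. *Ndufa4l2*, a relative of *Ndufa4* and a known target of the hypoxia factors, stood at 2245 CPM in noradrenaline and 960 CPM in adrenaline cells. The ratio was 2.34 (2.24 to 2.44). Whether it takes the place of *Ndufa4* in the enzyme was not tested. Of 3 associated or replacing subunits tested, only *Ndufa4l2* was at least 2-fold apart. Its share of the *Ndufa4* pair was 79.3% (77.9 to 80.6) in noradrenaline, 64.7% in transitioning-like, 58.5% in adrenaline and 43.9% in cycling chromaffin-like cells. Fibroblast-like cells had 42.2% (36.2 to 48.3) and sustentacular-like cells 15.7% (10.3 to 22.4). The share was 2.21% in immune-like, 1.23% in endothelial-like and 0.344% in cortex-like cells. Of the 16 regulators listed 12 were tested, and 2 were at least 2-fold higher in noradrenaline cells, against 2.52% of all 9713 genes tested. *Epas1*, which encodes the hypoxia factor HIF-2α, stood at 177 CPM against 35.6 CPM, 4.97-fold (4.14 to 5.95), and *Mef2c*, a muscle and neuronal transcription factor, at 72.1 CPM against 3.13 CPM, 23.1-fold (14.5 to 38.1). Both were also 2-fold higher in endothelial-like than in adrenaline cells, at 191 and 681 CPM. *Cox8b* was at 7.36 CPM in endothelial-like cells. A link of either gene to *Cox8b* was not tested. *Ppargc1a*, *Esrra*, *Esrrg* and *Ppara*, the coactivator and nuclear receptors of muscle and brown fat respiration, had too few UMIs to compare.

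In cortex-like against adrenaline cells the median log2 ratio was 0.68 for the other nuclear subunits, 0.44 for the assembly factors and 0.23 for the mitochondrially encoded subunits, against 0.02 over all genes tested. It was -0.37 for the associated or replacing subunits, of which *Ndufa4* was higher and *Ndufa4l2* lower. At least 2-fold higher were 1 of 7 nuclear subunits (*Cox5a*, 2.35-fold) and 3 of 24 assembly factors (*Cox18*, *Smim20* and *Chchd2*), shares near the 10.7% of all genes tested. *Cox7a1* made up 108 of the 12917 CPM to which all nuclear subunits, members included, summed in cortex-like cells. *Cox8b* made up 2678 of the 10898 CPM of that sum in noradrenaline cells.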

How the data were processed

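The authors processed the reads with Cell Ranger 4.0.0 against mm10, according to the submitters' processing notes, and deposited whole-number UMI counts per gene and barcode for 1 library, not normalized. The study's limits on cells were applied (500 to 5000 genes, at most 20% mitochondrial UMIs). Cells were clustered with Seurat 5.3.0 in R 4.3.3 (2000 variable features, 10 principal components, resolution 0.4), and the 2786 medullary cells were clustered again. Clusters were named from marker genes (at least 3 in 50% of cells, or in 25% for sustentacular and cycling markers), with percentages set after seeing the data. Doublets were called with the Scrublet method in scanpy 1.11.5 (669 cells, 6.60%) and kept. Raw UMIs were summed per class in Python 3.11.15. Levels carry exact Poisson intervals, shares Clopper-Pearson intervals and ratios exact conditional binomial intervals from scipy 1.17.1, all 95% and for counting error only; a count of 0 was read as allowing 3. No p-value was computed, since the library is not replicated. Calls of at least 2-fold, ranks and median log2 ratios use CPM + 10 for genes with at least 50 UMIs. Ratios given with an interval use CPM alone. Scripts were tested on simulated data. Named genes were the 8 members, the listed complex IV genes and regulators, and the 5 genes most correlated over classes. Members and lists were chosen with earlier results of these data known. For *Cox4i1*, *Cox4i2* and *Cox6a2* no upstream region was used here, nor any protein sequence.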

Additional observations from a re-analysis of the deposited data

Results flagged for a closer look

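Barcodes outside the named classes also held the tissue isoforms, above the limit that 3 counts set. In the 1075 barcodes outside the limits on cells, where that limit is 1.09 CPM, *Cox8b* stood at 104 CPM, *Cox4i2* at 15.6 CPM and *Cox7a1* at 37.0 CPM. The 78 of these with more than 5000 genes held most of the signal, with 229 of the 287 *Cox8b* UMIs and 96 of the 102 *Cox7a1* UMIs. The *Cox8b* share of the pair was 6.58%, against 7.85% in all cells that passed.

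In the 730 cells of mixed clusters, where the limit is 0.69 CPM, *Cox8b* stood at 171 CPM, *Cox4i2* at 23.7 CPM and *Cox7a1* at 73.8 CPM. Their shares were 8.29%, 1.29% and 6.70%. Of these cells 68.5% were called doublets, whose part in the values was not tested.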

How the results depend on the processing

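Some orders of medullary classes were the other way round after thinning to 1000 UMIs, a single random draw. The *Cox4i2* share of the pair was 3.69% (2.73 to 4.87) in cycling and 5.03% (4.58 to 5.51) in adrenaline cells. Thinned, these were 6.25% (3.27 to 10.7) and 5.26% (4.32 to 6.34), and the intervals overlapped both times. The percent of cells with a *Cox4i2* UMI in noradrenaline against adrenaline cells went from 17.7% against 20.2% to 7.08% against 6.15%. The part of depth or of counting error in these orders was not tested. The *Cox8b* share in noradrenaline chromaffin-like cells (59.6%) was 57.6% with 30 principal components, 43.2% with cells named from their own markers, 61.0% with cells thinned to 1000 UMIs and 58.3% without the 1% of cells highest in the isoform. The *Cox8b* ratio (126) was 52.1 with cells named from their own markers, 159 with cells weighted equally, 151 thinned and 342 without the top 1% of cells, since 17 adrenaline cells hold 65.4% of that class's *Cox8b*. Over all cells the *Cox4i2* share (1.15%) was 1.25% with stricter limits on cells, 1.43% with equal weights, 1.38% thinned and 0.799% without the top 1%. The *Cox6a2* share (0.0744%) was 0.122% with equal weights, 0.195% thinned and 0 without the top 1%, which removes all 19 UMIs. The *Cox7a1* share (5.98%) was 6.21% with stricter limits, 5.05% with equal weights, 5.40% thinned and 5.17% without the top 1%. The 462 genes at least 2-fold apart between the chromaffin classes became 199 with own-marker names and 969 with a pseudocount of 1 CPM. Where not stated, the cause was not tested. Of 101 further values of 18 class shares, chosen after seeing the data, 89 lay within the interval first given and 6 moved by over 1.5 times: the sustentacular-like (18.5%) and endothelial-like (0.346%) *Cox8b* shares without doublets, and the cycling *Cox7a1* share, at 0 in 4 settings. No paired analysis was possible because there is 1 library. The labels do not tie cells of the 1 library to animals, cells were not split by sex here, and depth leaves *Cox6a2* undetermined in 4 classes with 0 UMIs.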
